A study of Drosophila melanogaster with 12 samples.

Results

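The eIF4E cap-binding family was followed in gonads of Drosophila melanogaster through 9 genes, matched by symbol to 9 of the 17559 gene IDs counted. They are the cap-binding paralogs eIF4E1, eIF4E3, eIF4E4, eIF4E5, eIF4E6 and eIF4E7, the cap-binding repressor eIF4EHP, the scaffold gene eIF4G2 and Thor, the gene of the inhibitor 4E-BP. The rule names them by family and uses no measured value, but the members were chosen with earlier results of these data known. All animals carried a bam mutation, which blocks germ cells before they differentiate, so that early germ cells accumulate. There were 4 groups of 3 libraries, which the submitters call biological replicates. The first 2 were bam mutant ovaries and bam mutant testes. The others were bam mutant ovaries that also carried RNA interference (RNAi) directed at mCherry or at Sxl. The flies were 1 to 3 days old and kept at 25 °C, and the females were virgins. mCherry is not a fly gene, so its RNAi serves as the control, while Sxl is the switch gene of female identity and its protein binds RNA. Neither the bam alleles nor the RNAi driver, nor any pooling of animals, is given in the sources used here.

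Most eukaryotic messages are translated after eIF4E binds the cap at their 5′ end and recruits the scaffold eIF4G, which brings the helicase eIF4A and the small ribosomal subunit. 4E-BP binds eIF4E on the surface that eIF4G uses and so blocks recruitment, until the TOR kinase phosphorylates it. Drosophila has several eIF4E genes. eIF4E1 is the general form, and eIF4E3 and the eIF4G paralog eIF4G2 are known for roles in male meiosis and spermatogenesis. eIF4EHP binds the cap but not eIF4G and represses the messages to which its partners tether it, such as caudal and hunchback in the embryo.

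Each library held between 16152230 and 25097969 reads assigned to genes. Levels are in CPM, the count of a gene relative to the scaled library size (per 1e6 reads), and are given by library or as mean ± SD with n = 3. Where different genes are compared, CPM is divided by the length in kilobases of the longest annotated transcript. Germ cell markers were present in all groups, with a summed level of 1146 to 1802 CPM for the 7 of 8 markers that could be matched. Single markers shifted in both directions. Against bam ovaries, nanos and zpg were higher and ovo and otu lower in testes without overlap, while bgcn, aub and AGO3 overlapped. Against mCherry RNAi, zpg was higher and AGO3 lower with Sxl RNAi without overlap, and the others overlapped. Follicle cell and eggshell genes reached 3670 to 7099 CPM in ovaries and 29.0 to 45.3 CPM in testes. The RNAi target Sxl stood at 140 to 224 CPM under its own RNAi, against 500 to 534 CPM under mCherry RNAi. Libraries stood apart in how long genes fared against short ones. In bam ovary replicate 3, bam testis replicate 2, mCherry RNAi replicate 2 and Sxl RNAi replicate 1, the median of 2035 long genes against that of 2036 short genes deviated from the group mean by -0.63, -0.86, -0.45 and -0.17 on the log2 scale. In bam testis replicate 3 it deviated by 0.73.

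The members differ in place and size. By an annotation of genome build BDGP6, eIF4E4, eIF4E5, eIF4E3 and eIF4E1 lie in that order on chromosome arm 3L, with 2.735 Mb between the starts of the outer members. eIF4E1 (FBgn0015218) spans 9399618 to 9402460 on the minus strand, with 9 annotated transcripts and proteins of 248 to 259 residues. eIF4E3 (FBgn0265089) spans 8229224 to 8230568 on the plus strand and has 1 transcript of 1040 bases, coding for 244 residues. eIF4E5 (FBgn0035823, 7894880 to 7896009) and eIF4E4 (FBgn0035709, 6664224 to 6665641) code for 232 and 229 residues. eIF4E6 (FBgn0039622) lies on 3R at 29026439 to 29027174 and codes for only 173 residues, whereas the X-linked eIF4E7 (FBgn0040368, 1158599 to 1162389) codes for 429. eIF4EHP (FBgn0053100) spans 45884 bases of 3R and shares 447 exon bases with Syx1A on the same strand. eIF4G2 (FBgn0260634, 3R, 23808285 to 23819237) has the longest transcript of the set, 8889 bases coding for 2072 residues, and shares 779 exon bases with CG33111. Reads in these shared stretches cannot be told apart by gene. Thor (FBgn0261560, 2L, 3478434 to 3479612) has the shortest coding sequence, for 117 residues, on a transcript of 755 bases.

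Of the 9 members, 8 had at least 1 count. eIF4E4 was listed at 0 in all 12 libraries, which allows at most 0.230 CPM in any library at a floor of 3 counts. eIF4E5, a paralog described for late spermatogenesis, had between 0 and 7 counts per library and 50 in all, with 0, 2 and 3 counts in the bam testes and 3 to 7 in each ovary library. It failed the filter on low counts in each comparison, as eIF4E4 did, so neither was tested. A 0 in these files does not by itself show that a gene is silent. cup, which encodes an eIF4E-binding repressor of the ovary, was also listed at 0 in all 12 libraries, and all 4306 of its exon bases are shared with exons of CG34310. No exon of another gene overlaps eIF4E4 in the annotation used.

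**Figure D1:**
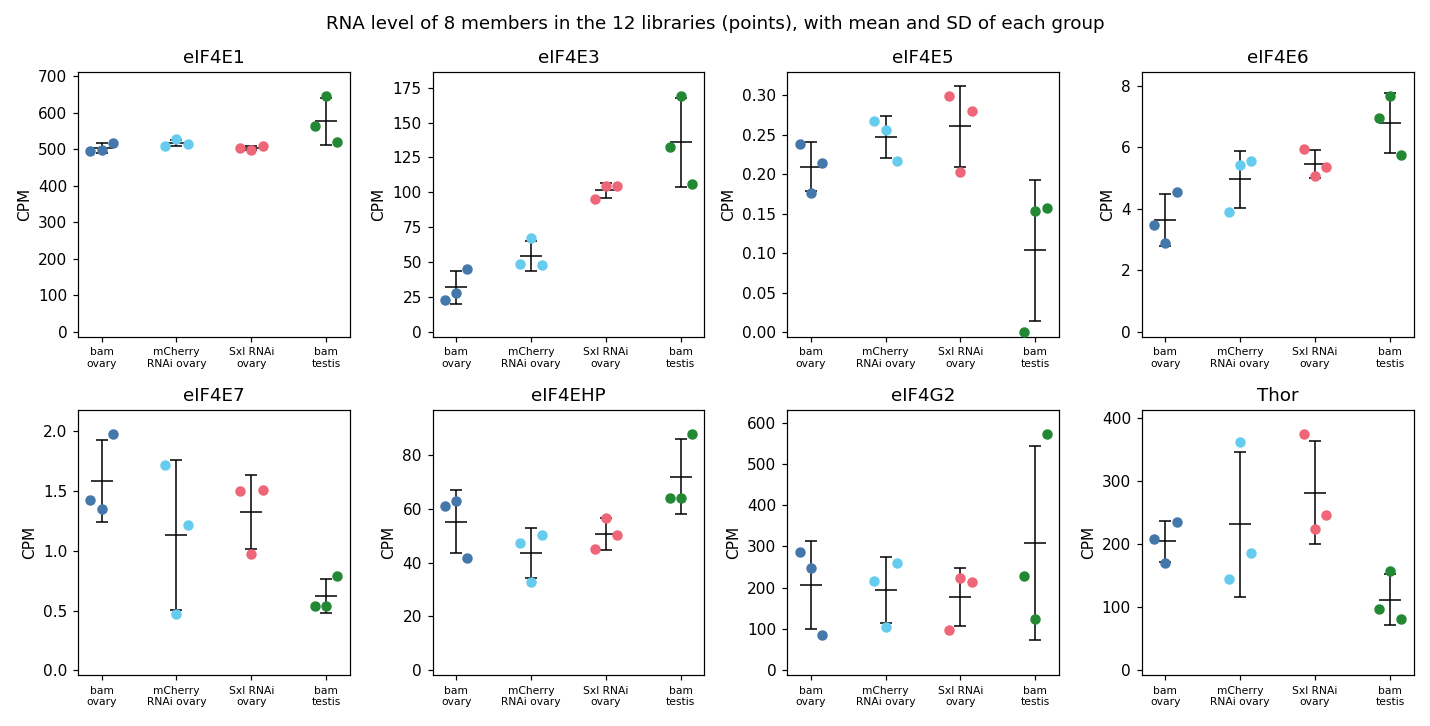
RNA level in CPM (vertical axes, linear, each with its own scale) of the 8 members with counts, by group; points are libraries, bars are the mean and SD of 3 libraries. eIF4E3 runs from 22.8 to 45.0 CPM in bam ovaries and from 106 to 169 CPM in bam testes with both RNAi groups between them, eIF4E1 stays between 494 and 647 CPM in all 12 libraries, and eIF4G2 spreads widely within every group.

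Per length, eIF4E1 and Thor gave the highest levels of the set in the ovary groups. In bam ovaries eIF4E1 stood at 281 ± 7.10 and Thor at 271 ± 43.0 CPM per kb, which did not differ beyond their spread. eIF4E3 (30.7 ± 11.1 CPM per kb) and eIF4G2 (32.1, 27.9 and 9.53 CPM per kb) followed and overlapped each other. eIF4EHP was at 12.2 ± 2.60, eIF4E6 at 5.30 ± 1.23 and eIF4E7 at 0.968 ± 0.209 CPM per kb. In bam testes the level of eIF4E1 was 322 ± 35.8 CPM per kb, while Thor (148 ± 53.6) and eIF4E3 (131 ± 30.7) lay close together, followed by eIF4G2 (34.7 ± 26.4), eIF4EHP (15.8 ± 3.03), eIF4E6 (9.90 ± 1.41) and eIF4E7 (0.379 ± 0.0874). In both RNAi groups Thor had the highest mean, 306 ± 153 CPM per kb with mCherry RNAi and 373 ± 108 with Sxl RNAi, against 288 ± 5.20 and 281 ± 3.18 for eIF4E1. The ranges of Thor and eIF4E1 overlapped with mCherry RNAi, and with Sxl RNAi Thor's lowest library, 296 CPM per kb, lay above eIF4E1's highest, 284.

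Testes were set against ovaries to find sex differences in gonads whose germ cells are arrested by loss of bam in both sexes. eIF4E3 and eIF4E6 were higher in testes, and eIF4E7 and Thor were lower. These 4 of the 7 members tested passed an adjusted p under 0.05, against 32.7% of all 9738 genes (16.4% higher and 16.3% lower), and 7 genes are too few to set their share apart from that. Adjusted p-values are from edgeR's quasi-likelihood test with Benjamini-Hochberg adjustment over all genes. Apart from eIF4G2, the CPM ranges of the sexes did not overlap for any of the 7, which held for 48.2% of all genes. In whole gonads a lower number of cells of a type and less RNA per cell cannot be told apart.

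eIF4E3 showed the largest difference of the family. It stood at 22.8, 28.0 and 45.0 CPM in the bam ovaries and at 133, 169 and 106 CPM in the testes. Every testis library exceeded every ovary library, by more than the SD of either group. The log2 fold change was 2.07 (SE 0.29, adjusted p = 0.00265), a 4.21-fold difference. It passed under all 15 alternatives run, with log2 values from 1.88 to 2.41. Without bam ovary replicate 3 and bam testis replicate 2 together it was 2.23 (SE 0.18, adjusted p = 0.000358).

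The general form eIF4E1 had a small difference that did not pass. It stood at 494, 497 and 518 CPM in bam ovaries and at 562, 647 and 521 CPM in testes. The testis values lay just above the ovary values, and 1 library, testis replicate 2, was well above the rest. The log2 fold change was 0.19 (SE 0.13, adjusted p = 0.328), with an interval of 2 SE from -0.08 to 0.46. Without testis replicate 2 it was 0.12 (SE 0.14, adjusted p = 0.570).

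Of the weakly expressed paralogs, eIF4E6 was at 3.47, 2.88 and 4.55 CPM in bam ovaries and at 6.94, 7.68 and 5.76 CPM in testes. All 3 testis libraries were above all 3 ovary libraries, with 0.89 as the log2 fold change (SE 0.25, adjusted p = 0.0339). eIF4E7 had 30, 23 and 37 counts in bam ovaries and 9, 7 and 15 in testes, or 1.59 ± 0.342 against 0.620 ± 0.143 CPM. The testis libraries were all below the ovary libraries (log2 fold change -1.33, SE 0.34, adjusted p = 0.0245). These calls lay close to the threshold. That of eIF4E6 was lost without bam testis replicate 1 or 2 or bam ovary replicate 1 or 2 (adjusted p = 0.111, 0.0716, 0.122 and 0.130) and with upper-quartile scaling (0.0552). That of eIF4E7 was lost without any 1 of those 4 or bam ovary replicate 3 (0.0951, 0.0510, 0.0686, 0.0644 and 0.0693), without bam ovary replicate 3 and bam testis replicate 2 together (0.0786) and with no filter on low counts (0.0516). Both calls were also lost with a block for replicate number.

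The cap-binding repressor eIF4EHP stood at 61.1, 62.9 and 41.6 CPM in bam ovaries and at 64.0, 63.9 and 87.8 CPM in testes. Its lowest testis value lay only just above its highest ovary value, and the log2 fold change of 0.39 (SE 0.23, adjusted p = 0.248) did not pass. With the trend of each library on transcript length removed, an alternative added with the data in view, it passed at 0.71 (SE 0.12, adjusted p = 0.00277), the only 1 of 15 alternatives in which it did. The value was 0.19 (adjusted p = 0.513) without testis replicate 3, 0.22 (adjusted p = 0.477) without ovary replicate 3, and 0.29 (adjusted p = 0.208) without ovary replicate 3 and testis replicate 2 together. These libraries stood apart in the length balance, and whether that balance bears on the value was not tested.

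The scaffold gene eIF4G2 varied more within groups than between them. It was at 286, 248 and 84.7 CPM in bam ovaries and at 229, 124 and 573 CPM in testes. The groups overlapped, with the lowest value in ovary replicate 3 and the highest in testis replicate 3. The log2 fold change was 0.61 (SE 0.67, adjusted p = 0.535), and the interval of 2 SE from -0.74 to 1.96 spans a loss as well as a large gain. Without testis replicate 3 the sign turned, to -0.23 (adjusted p = 0.755), and with the length trend removed the value was 1.06 (SE 0.29, adjusted p = 0.0225). Relative to eIF4G1, the general scaffold, eIF4G2 per kb stood at 0.313, 0.268 and 0.147 in bam ovaries and at 0.382, 0.283 and 0.652 in testes, which overlapped (exact permutation test, two-sided, p = 0.2, where 0.1 is the smallest possible).

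Thor was lower in testes. It stood at 208, 170 and 235 CPM in bam ovaries and at 97.2, 158 and 80.9 CPM in testes. Testis replicate 2 came close to ovary replicate 2, and the other testes were well below all ovaries. The log2 fold change was -0.89 (SE 0.25, adjusted p = 0.0379), or 1.85-fold lower. Without testis replicate 1 or 3, or without ovary replicate 1, 2 or 3, the adjusted p was 0.170, 0.0657, 0.107, 0.0637 and 0.0977. It was 0.0603 with upper-quartile scaling and 0.0721 in a fit to all 12 libraries, and without ovary replicate 3 and testis replicate 2 together it was 0.00430 at a log2 value of -1.08. The call was also lost with a block for replicate number. Per kb, Thor relative to eIF4E1 was 0.999, 0.812 and 1.08 in bam ovaries and 0.411, 0.579 and 0.369 in testes (exact permutation test, two-sided, p = 0.1, the smallest possible with 3 against 3).

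Some markers of other cells also differed between the sexes. Muscle markers summed to 9169 to 12854 CPM in bam ovaries and 1640 to 1959 CPM in testes, with 12 of 12 matched markers detected in both. Fat body markers summed to 1017 to 1209 against 38.2 to 85.6 CPM, with 5 of 5 detected, and markers of gonad somatic cells to 858 to 1272 against 307 to 337 CPM, with 9 of 9 detected. Tsf1 made up most of the fat body sums (1009 to 1132 against 30.4 to 62.7 CPM), and Lsp2, Fbp1, Fbp2 and Lsp1beta overlapped. Of the gonad somatic markers tj, ptc, Fas3, en and eya were lower in testes without overlap, and zfh1, upd1 and Wnt4 overlapped. In the other direction hh was higher in testes (5.67 to 7.47 against 14.8 to 28.8 CPM). Spermatocyte markers summed to 94.3 to 108 CPM in bam ovaries and 133 to 177 CPM in testes. Among the 12 matched, Taf12L was at 2.43 to 3.64 against 11.4 to 30.7 CPM, nht at 0.160 to 0.235 against 2.39 to 4.45 CPM and tomb at 4.09 to 7.91 against 10.3 to 15.2 CPM, while topi overlapped (10.3 to 18.6 and 6.22 to 12.3 CPM). The ranges of aly, bol and can overlapped as well. Both mia and twe were higher in testes without overlap, and sa, with at most 3 counts in any of these libraries, was lower. comr and dj had at most 1 count in any library of either sex. Of 11 matched markers of spermatids and sperm 8 were at 0 in bam ovaries and 7 in testes, and they summed to 0.0535 to 0.176 and 1.26 to 2.23 CPM. Most of the latter was Mst87F, with 19, 26 and 34 counts in testes against 0, 2 and 0 in bam ovaries. Accessory gland markers summed to at most 5.13 CPM in bam ovaries and to 76.2 to 2094 CPM in testes, highest in replicate 2, with 10 of 11 detected in both. Their part in the values of the family was not tested.

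**Figure D2:**
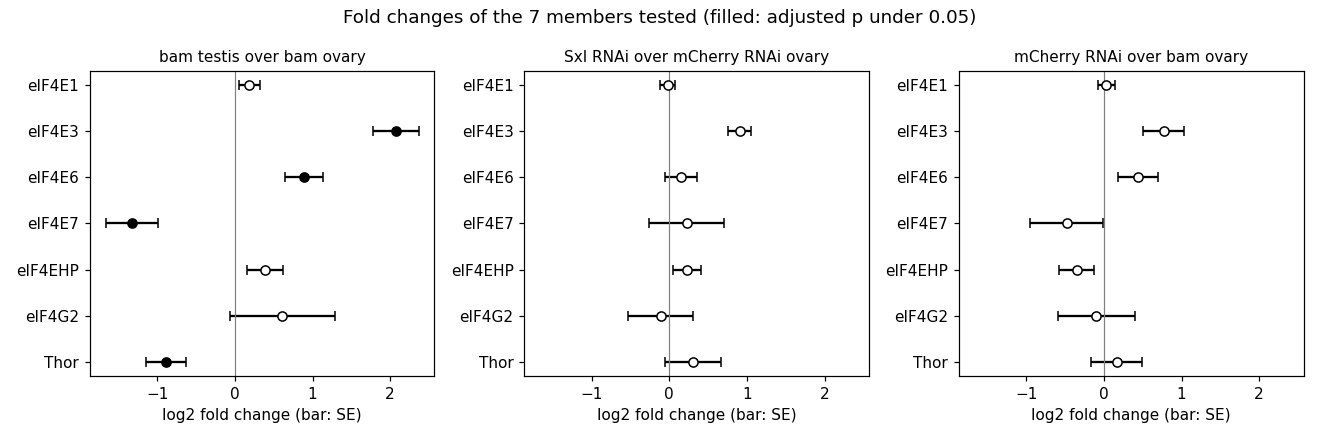
Log2 fold change (horizontal axis) of the 7 members tested in each of 3 comparisons; bars are the SE, and filled points have an adjusted p under 0.05 over all genes. Only the comparison of testes with ovaries has filled points, eIF4E3 and eIF4E6 to the right of 0 and eIF4E7 and Thor to the left; eIF4E3 lies to the right of 0 in all 3.

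The comparison of Sxl RNAi with mCherry RNAi ovaries asked what follows a reduction of Sxl in female gonads. None of the 7 members tested passed the threshold by edgeR, which called 0.209% of all 10059 genes. At an unadjusted p under 0.05, which 11.7% of all genes met, 1 member, eIF4E3, passed. DESeq2, which called 2.64% of the 11209 genes it gave an adjusted p, called eIF4E3 alone of the members. eIF4E3 stood at 49.0, 67.1 and 48.0 CPM with mCherry RNAi and at 95.0, 104 and 105 CPM with Sxl RNAi. All 3 Sxl RNAi libraries lay well above all 3 controls, a separation that 18.1% of genes showed in either direction. The log2 fold change was 0.91 (SE 0.15, unadjusted p = 0.000481, adjusted p = 0.0849), or 1.87-fold. The adjusted p was 0.0354 without mCherry RNAi replicate 2, 0.00218 without that library and Sxl RNAi replicate 1 at a log2 value of 1.12, 0.0276 with the length trend removed, and 1.82e-05 by DESeq2. Over all 15 alternatives the adjusted p lay between 1.82e-05 and 0.374.

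The other members had small differences or wide errors with Sxl RNAi. eIF4E1 was at 509, 527 and 515 CPM with mCherry RNAi and at 504, 497 and 508 CPM with Sxl RNAi. Those ranges nearly touched, and the log2 fold change of -0.02 (SE 0.09, adjusted p = 0.959) had an interval of 2 SE from -0.21 to 0.16. eIF4E6 gave 0.15 (SE 0.21), eIF4E7 0.22 (SE 0.49) and eIF4EHP 0.23 (SE 0.18), with adjusted p of 0.857, 0.919 and 0.699. eIF4G2 was at 217, 104 and 260 CPM with mCherry RNAi and at 96.5, 223 and 213 CPM with Sxl RNAi, so each group had 1 low library and 2 higher ones (log2 fold change -0.11, SE 0.42, adjusted p = 0.955). Thor was at 145, 362 and 186 CPM against 375, 223 and 247 CPM (0.30, SE 0.36, adjusted p = 0.831). Its highest library in each group was the library in which eIF4G2 was lowest.

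Some markers of other cells also differed between the RNAi groups. Spermatocyte markers summed to 68.6 to 96.3 CPM with mCherry RNAi and 75.9 to 102 CPM with Sxl RNAi, and muscle markers to 13650 to 17188 and 12140 to 20896 CPM, so both overlapped between the groups. Follicle cell and eggshell genes summed to 4103 to 5452 CPM with mCherry RNAi and to 3670 to 4078 CPM with Sxl RNAi, and markers of gonad somatic cells to 986 to 1328 and 1360 to 1392 CPM. Of the follicle cell and eggshell genes only Yp1 (492 to 630 and 367 to 417 CPM) and Yp2 (1735 to 2053 and 1410 to 1607 CPM) did not overlap. Of the gonad somatic markers only Fas3 did not overlap, at 588 to 633 and 634 to 720 CPM. Of the spermatocyte markers Taf12L stood at 0.649 to 1.07 CPM with mCherry RNAi and 2.40 to 4.57 CPM with Sxl RNAi, and aly at 11.1 to 12.4 and 15.5 to 19.4 CPM, each without overlap. In the other direction can stood at 0.427 to 1.26 CPM with mCherry RNAi and 0.112 to 0.404 CPM with Sxl RNAi, also without overlap. The ranges of tomb, topi, sa, mia, nht, twe and bol overlapped. comr and dj had at most 1 count in any library of either group. In bam ovaries Taf12L stood at 2.43 to 3.64, aly at 14.8 to 17.6 and can at 0.267 to 0.381 CPM. For all of these the bam ovaries overlapped the Sxl RNAi range and not the mCherry RNAi range. The part of these markers in the level of eIF4E3 was not tested.

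The control comparison of mCherry RNAi with bam ovaries shows how far the members differ between ovaries that keep their Sxl. None of the 7 members tested passed by edgeR, which called 6.11% of all 9940 genes, and none passed by DESeq2, which called 11.4% of 11034. At an unadjusted p under 0.05, which 23.1% of genes met, 1 member, eIF4E3, passed. eIF4E3 was higher with mCherry RNAi in all libraries, at 48.0 CPM or more against 45.0 CPM or less, a separation that 31.3% of genes showed in either direction. The log2 fold change was 0.77 (SE 0.26, adjusted p = 0.144). The adjusted p was 0.0424 without bam ovary replicate 3, at a log2 value of 1.11, and 0.00308 without that library and mCherry RNAi replicate 2, at 0.93. It lay between 0.00308 and 0.362 over 15 alternatives. eIF4E6 gave 0.44 (SE 0.25, adjusted p = 0.370), eIF4EHP -0.35 (SE 0.22, adjusted p = 0.406) and the other 4 members between -0.48 and 0.17. eIF4EHP passed in 2 of 15 alternatives, at -0.41 (SE 0.10, adjusted p = 0.0335) with the length trend removed and at -0.35 (SE 0.066, adjusted p = 0.0158) without bam ovary replicate 3 and mCherry RNAi replicate 2, and it was -0.19 (adjusted p = 0.559) without mCherry RNAi replicate 2 alone. This comparison shares the mCherry RNAi libraries with the preceding one and the bam ovaries with that of the sexes, so the values of eIF4E3 in them are not independent of each other. Muscle markers summed to 13650 to 17188 CPM with mCherry RNAi against 9169 to 12854 CPM in bam ovaries, and fat body markers to 146 to 349 against 1017 to 1209 CPM. Tsf1 made up most of the fat body sums (117 to 293 against 1009 to 1132 CPM), and Lsp2, Fbp1, Fbp2 and Lsp1beta overlapped. Follicle cell and eggshell genes summed to 4103 to 5452 against 6283 to 7099 CPM. Yp1, Yp2, Vm26Aa, Vm26Ab, Vm34Ca and Cp36 were lower without overlap and the others overlapped. Of the germ cell markers zpg and AGO3 were higher without overlap and the others overlapped. Of the spermatocyte markers Taf12L, aly and mia were lower and can and nht higher without overlap. Among gonad somatic markers tj was lower and Fas3 higher without overlap. Whether these markers bear on eIF4E3 was not tested.

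The 4 groups took the order bam ovary, mCherry RNAi ovary, Sxl RNAi ovary and bam testis for eIF4E3, with means of 32.0 ± 11.6, 54.7 ± 10.7, 101 ± 5.52 and 136 ± 31.9 CPM. No range overlapped the next, but the gaps between the first and next group (45.0 to 48.0 CPM) and between Sxl RNAi ovaries and testes (105 to 106 CPM) were smaller than the spread within them. In an edgeR fit to all 12 libraries the log2 difference of Sxl RNAi over bam ovaries was 1.67 (SE 0.25, adjusted p = 0.00390), a contrast in which 5.93% of genes were called. Testes exceeded mCherry RNAi ovaries by 1.31 (SE 0.25, adjusted p = 0.00133), where 49.6% of genes were called. Testes against Sxl RNAi ovaries gave 0.42 (SE 0.25, adjusted p = 0.181), with an interval of 2 SE from -0.07 to 0.92, where 48.1% were called. In the same contrast Thor was lower in testes, with a log2 difference of -1.33 (SE 0.36, adjusted p = 0.0103), and against mCherry RNAi ovaries it was -1.05 (SE 0.36, adjusted p = 0.0301). eIF4EHP was higher in testes than in mCherry RNAi ovaries by 0.72 (SE 0.21, adjusted p = 0.0141), but against Sxl RNAi ovaries it did not pass (0.51, adjusted p = 0.0652). Neither eIF4E6 nor eIF4E7 passed for testes against either RNAi group. eIF4E6 gave 0.45 (adjusted p = 0.125) against mCherry RNAi and 0.32 (adjusted p = 0.282) against Sxl RNAi. eIF4E7 gave -0.86 (adjusted p = 0.136) and -1.07 (adjusted p = 0.0716). For eIF4E3 the log2 change between the sexes was larger than that with Sxl RNAi, by 1.20 (SE 0.35, adjusted p = 0.0274), a contrast that called 25.6% of genes. That call was lost (adjusted p from 0.0513 to 0.0726) without bam ovary replicate 1 or 2, bam testis replicate 1 or 2, mCherry RNAi replicate 2, or any 1 of the Sxl RNAi replicates.

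Per length, eIF4E1 made up 86.9%, 85.8% and 82.7% of the reads of the 7 cap-binding paralogs in bam ovaries. Its share was 80.4% ± 1.61 with mCherry RNAi, 70.5% ± 1.08 with Sxl RNAi and 67.4% ± 1.71 in testes. eIF4E3 held most of the remainder, with 9.22% ± 2.83 in bam ovaries, 14.6% ± 2.29 with mCherry RNAi, 24.5% ± 1.04 with Sxl RNAi and 27.1% ± 2.75 in testes. The share of eIF4E1 differed by -17.8 percentage points between testes and bam ovaries, by -9.94 between Sxl and mCherry RNAi, and by -4.69 between mCherry RNAi and bam ovaries. In each of the 3 the libraries did not overlap, and the exact permutation test (two-sided, 3 against 3) gave p = 0.1, the smallest possible and also the value after adjustment over the 3. Relative to eIF4E1, eIF4E3 per kb stood at 0.109 ± 0.0365 in bam ovaries, 0.182 ± 0.0324 with mCherry RNAi, 0.347 ± 0.0199 with Sxl RNAi and 0.403 ± 0.0509 in testes. eIF4EHP held between 1.94% and 4.60% and eIF4E6 between 1.30% and 2.29% of the paralog reads in any library. eIF4E7 and eIF4E5 stayed at or under 0.346%.

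**Figure D3:**
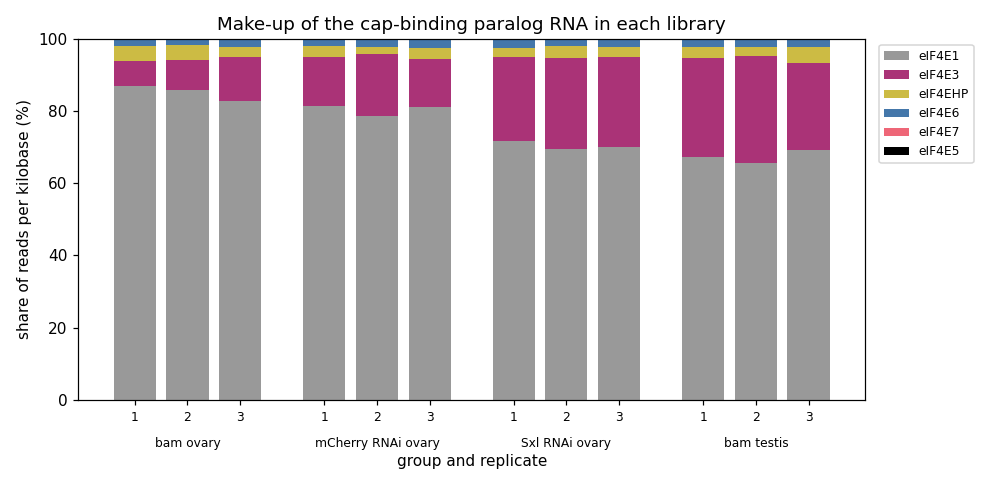
Share in percent (vertical axis) of each cap-binding paralog in the reads per kilobase of the family, 1 bar for each of the 12 libraries; eIF4E4 had no reads, and eIF4E7 and eIF4E5 are too small to see. eIF4E1 holds 82.7% or more in bam ovaries and 69.1% or less in testes, and eIF4E3 holds most of the remainder.

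Several members followed the balance of long and short genes across libraries. In each group the library with the lowest level of long genes had the lowest eIF4G2, whose log2 deviations from the group mean were -1.10, -1.03, -0.79 and -0.78 in bam ovary replicate 3, bam testis replicate 2, mCherry RNAi replicate 2 and Sxl RNAi replicate 1. The short gene Thor had its highest level in the same 4 libraries, at 0.21, 0.55, 0.76 and 0.45 above the group mean. eIF4E3, also short, was highest in the first 3 of them (0.55, 0.34 and 0.31) and at -0.09 in Sxl RNAi replicate 1. eIF4E1 deviated by at most 0.17 in any library. Removing the trend on length left the direction of every member called between the sexes as it was, with eIF4E3 at 1.89 (SE 0.16, adjusted p = 0.000102) and Thor at -1.16 (SE 0.12, adjusted p = 0.000217).

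**Figure D4:**
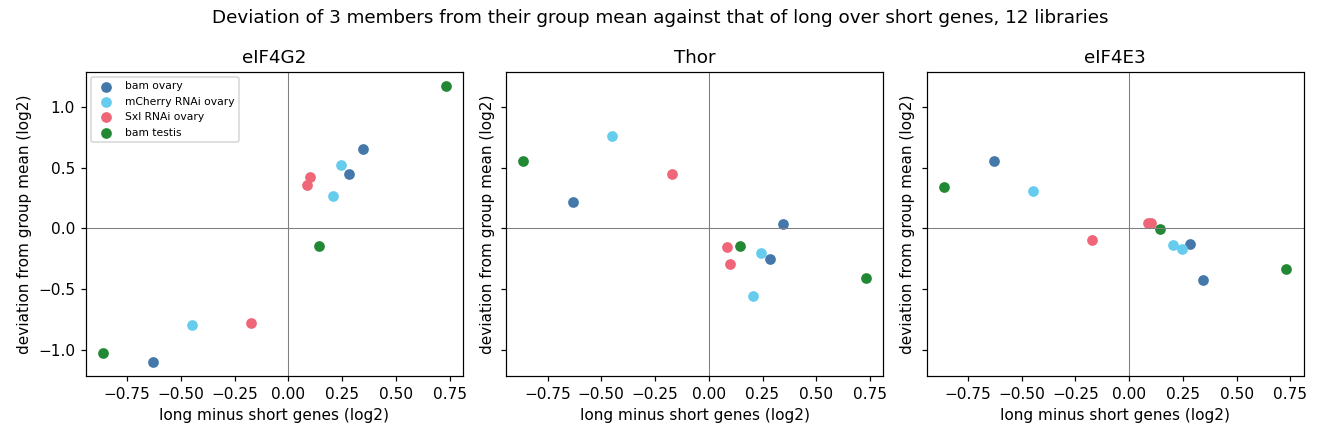
Log2 deviation of eIF4G2, Thor and eIF4E3 from the mean of their own group (vertical axes) against the log2 deviation of the median of 2035 long genes relative to 2036 short genes (horizontal axes); each point is 1 of 12 libraries. eIF4G2 is at -1.03 in bam testis replicate 2, the library lowest for long genes, and at 1.17 in bam testis replicate 3, the highest, while Thor is at 0.55 and -0.41 and eIF4E3 at 0.34 and -0.34 in the same libraries.

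The genes that work with these factors were followed in 3 lists. Of 18 cap-binding partners and repressors 16 were tested (cup and eIF4H2, with 0 and 17 counts in all, were not). By edgeR 2 of them passed, both lower in testes, where 32.7% of all genes were called and 16.3% were lower. DESeq2, which called 33.1% of 11689 genes, called the same 2. These were bru1, a translational repressor of the germline (256 ± 20.7 CPM in bam ovaries and 125 ± 37.4 in testes, log2 fold change -1.02, SE 0.26, adjusted p = 0.0261), and mxt, an eIF4E-binding scaffold (249 ± 3.14 and 165 ± 9.62 CPM, -0.59, SE 0.13, adjusted p = 0.0165). eIF4G1 gave -0.32 (SE 0.33) and the helicase gene eIF4A -0.05 (SE 0.19). The median of the list was -0.18, beside 0.01 for all genes.

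Among 26 other initiation factors tested of 28, 3 were higher and 1 was lower in testes by edgeR, with a median of 0.10, against 16.4% and 16.3% of all genes. DESeq2 called the same 4 genes and eIF3j, which was higher (adjusted p = 0.0640 by edgeR). The largest difference was that of eIF3f2, a paralog of an eIF3 subunit gene, at 3.95, 4.82 and 4.97 CPM in bam ovaries and at 115, 178 and 98.8 CPM in testes. The testes were far above all ovaries (log2 fold change 4.81, SE 0.25, adjusted p = 7.98e-05). With Sxl RNAi it stood at 1.80, 4.97 and 2.80 CPM against 3.05, 1.96 and 2.52 CPM with mCherry RNAi, which overlapped (0.37, SE 0.41, adjusted p = 0.813). eIF6, an anti-association factor of the large ribosomal subunit (0.74, SE 0.19, adjusted p = 0.0270), and eIF1A (0.51, SE 0.13, adjusted p = 0.0266) were also higher in testes, and eIF5 was lower (-0.49, SE 0.14, adjusted p = 0.0367).

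Of 16 genes of the TOR and stress pathways that act on Thor, foxo, whose product is known to activate Thor transcription, was the only call by edgeR and by DESeq2, and it was lower in testes, as were 16.3% of all genes. It stood at 86.8, 80.1 and 61.1 CPM in bam ovaries and at 30.7, 26.3 and 48.6 CPM in testes, without overlap (-1.10, SE 0.29, adjusted p = 0.0280). The list's median was -0.08. Without bam testis replicate 1 or bam ovary replicate 1 or 2 the calls of foxo, bru1, mxt, eIF1A, eIF6 and eIF5 were lost (adjusted p from 0.0686 to 0.215). Those of bru1, eIF1A and eIF5 were also lost without bam ovary replicate 3, that of eIF1A without bam testis replicate 2 and that of eIF5 without bam testis replicate 3 (0.0510 to 0.0667), while eIF3f2 passed under all 15 alternatives.

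With Sxl RNAi none of the 58 genes in the 3 lists passed by edgeR or DESeq2, and their medians were between -0.06 and 0.07. At an unadjusted p under 0.05, which 11.7% of all genes met, there were 3, eIF6, eIF2gamma and eIF2beta, each with an adjusted p of at least 0.345. In the control comparison eIF6 was lower with mCherry RNAi than in bam ovaries (-0.55, SE 0.11, adjusted p = 0.0356). It was the only call in the 3 lists by edgeR, which called 6.11% of all genes. DESeq2, which called 11.4%, called 3 (eIF6, eIF2Bepsilon and eIF3f2, all lower). The median of the other initiation factors was -0.20, with 2 of 26 above 0, beside -0.01 for all genes. Medians of the partner and TOR lists were -0.06 and 0.04. The edgeR call was lost without any 1 of the 6 libraries (adjusted p from 0.0590 to 0.160).

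The gene closest to eIF4E3 in its pattern over the 12 libraries was CG3603, with a root mean square difference of 0.28 between their log2 levels after each was centred. lncRNA:CR44330 (0.33) and CG12728 (0.40) were next among 9361 genes with a mean of at least 1 CPM. No member met the preset minimum SD of 1 on the log2 scale for this search, and eIF4E3, with 0.90, was taken after its values were seen. CG3603 stood at 7.38 ± 1.86 CPM in bam ovaries, 9.59 ± 1.94 with mCherry RNAi, 20.6 ± 2.06 with Sxl RNAi and 39.6 ± 13.4 in testes.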

How the data were processed

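The authors deposited whole-number counts of reads per gene for 12 libraries of polyadenylated RNA, made, per the labels' protocols, with a kit that keeps no strand. Build BDGP6 is named in the submitters' processing notes, with HTSeq 0.9.1, TopHat2 2.1.1, Bowtie2 2.2.9, DESeq and FastQC. Neither the annotation release nor HTSeq's overlap setting is given there. HTSeq's 5 summary lines, 12.0% to 17.1% of reads in a library, stayed out of library sizes and tests, and among them reads aligned to more than 1 place made up 7.30% to 12.6%, which matters for paralogs.

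Groups came from the sample titles. The members and lists were chosen with earlier results of these data known. For each comparison edgeR 4.0.16 (R 4.3.3) was fitted to the 6 libraries compared (TMM scaling, filterByExpr, robust quasi-likelihood F test), and for the contrast of the sex and Sxl effects to all 12; contrasts of the other pairs of groups in that fit were added after the data were seen. The SE is the log2 fold change divided by the square root of F. Intervals are 2 SE each side. A call is a Benjamini-Hochberg adjusted p under 0.05. Long and short genes are the 20% at each end of transcript length, at least 3722 and at most 1060 bases. Symbols matched 17253 of 17559 IDs; S6k, InR, vas, wupA, Cg and don of the lists had no match, and Tor, nos, rye and Acp70A were matched as mTor, nanos, Taf12L and SP. The rule for named genes took the 9 members and up to 4 called genes per list, comparison and direction; spermatocyte and other markers were summed in CPM. Replicates of a group differed beyond counting noise (chi-square per degree of freedom at least 9.32). The scripts were tested on simulated data. Sequences were not used here. Alternatives were RLE and upper-quartile scaling, 2 other filters, DESeq2 1.42.0, all 12 libraries, a block for replicate number, and omission of each replicate; removal of a lowess trend on length (span 0.3), leaving out 1 library of each group together and leaving out each library in the contrast of the sex and Sxl effects were added after the data were seen. Floors cover counting error only.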

Additional observations from a re-analysis of the deposited data

Results flagged for a closer look

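The log2 change of eIF4E3 between the sexes exceeded that with Sxl RNAi by 1.20 (SE 0.35, adjusted p = 0.0274 by edgeR in a fit to all 12 libraries). It was picked out because a test of the difference itself passed. The sex change is taken against bam ovaries and the Sxl RNAi change against mCherry RNAi ovaries. By edgeR, eIF4E3 in the latter reference over the former gave 0.77 (SE 0.26, adjusted p = 0.144). In the fit to all 12 libraries, testes over Sxl RNAi ovaries gave 0.42 (SE 0.25, adjusted p = 0.181). The contrast therefore does not show by itself that testes exceed Sxl RNAi ovaries. eIF4E3 was 4.21-fold higher in testes and 1.87-fold higher with Sxl RNAi, and all 3 libraries of the test group lay above all 3 of the reference group in both. Such a separation, in either direction, was shown by 48.2% of all genes between the sexes and by 18.1% with Sxl RNAi. Leaving out 1 library gave values from 1.00 to 1.51, and the adjusted p was above 0.05 without bam ovary replicate 1 or 2, bam testis replicate 1 or 2, mCherry RNAi replicate 2, or any Sxl RNAi replicate (0.0513 to 0.0726).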

How the results depend on the processing

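The direction and call of eIF4E3 between the sexes held under all 15 alternatives, and the median of all genes moved by less than 0.1 on the log2 scale under each scaling. The 3186 genes called between the sexes became 4886 with the length trend removed, 3886 without bam ovary replicate 3 and bam testis replicate 2, and 1924 to 3539 when 1 replicate was left out; the 4 members called became 2 with upper-quartile scaling and 1 to 3 without 1 replicate. The 21 genes called with Sxl RNAi became 39 with no filter, 296 by DESeq2, 43 with all 12 libraries, 44 with the length trend removed, 366 without mCherry RNAi replicate 2 and Sxl RNAi replicate 1, and 3 to 23 without 1 replicate, and the members called went from 0 to 1 by DESeq2, with the trend removed and without those 2 libraries, and were 0 to 1 without 1 replicate. The 607 genes called in the control comparison became 1261 by DESeq2, 1439 with the trend removed, 1808 without bam ovary replicate 3 and mCherry RNAi replicate 2, and 153 to 388 without 1 replicate, and the members called went from 0 to 2, 2 and 0 to 1 in the last 3 of these. The difference of the sex and Sxl effects called 1 member, 2 with the trend removed, and 0 to 2 without 1 library. With summed exon length the eIF4E1 share differed by -20.1 points between the sexes. The replicate numbers gave no sign that they pair the samples. Same-numbered libraries correlated at 0.046, -0.39 and -0.60 between the sexes, -0.13, -0.32 and 0.022 for RNAi, and 0.36, -0.37 and -0.28 in the control comparison, and not every library correlated best with its own number. With 3 libraries per group this check cannot exclude pairing. With the replicate block, 1696 genes and 1 member, 3 genes, and 93 genes were called in the 3 comparisons. Signs turned, with no call on either side, for eIF4G2 between the sexes without bam testis replicate 3 (-0.23; -0.23 to 0.96 over all replicates left out), with Sxl RNAi without Sxl RNAi replicate 1 (0.19) or mCherry RNAi replicate 3 (0.16; -0.41 to 0.19), in the control comparison without mCherry RNAi replicate 2 (0.20) or bam ovary replicate 1 or 2 (0.20 and 0.047; -0.47 to 0.20), and in the difference of effects without bam testis replicate 3 (-0.091; -0.091 to 1.07). They also turned for eIF4E7 with Sxl RNAi without mCherry RNAi replicate 2 (-0.14; -0.14 to 0.66) and without it and Sxl RNAi replicate 1 (-0.25), and in the control comparison without the pair left out there (0.080; -0.93 to -0.13 without 1 replicate), for Thor in the control comparison without mCherry RNAi replicate 2 (-0.33; -0.33 to 0.41) and without that pair (-0.20), for eIF4E1 there without bam ovary replicate 1 (-0.00072; to 0.060), and for eIF4EHP in the difference of effects without bam ovary replicate 3 (-0.021; to 0.33). The causes were not tested. Counts of 7 to 45 per library limit eIF4E7, and those of eIF4E5 allow no test.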
